A study of Homo sapiens with 6 samples.

Results

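TP53INP2 encodes a small protein that leaves the nucleus when autophagy starts and binds ATG8 proteins on forming autophagosomes. It was examined here with its paralog TP53INP1 and 36 genes of the autophagy machinery, 38 genes in all among 21357 genes with a probe set on the array. The genes were listed by name, and each was read at the brightest (by mean over the 6 arrays) of the probe sets whose annotation is, or lists, the gene. All 38 had a probe set. TP53INP2 heads the list because it was higher in this same comparison, so its values are given as a description, with no test, and they support nothing further. The other 37 genes are there for their role, but the list was drawn up with earlier results of these data known.

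MOLM-14, the line used, is an established line of human acute myeloid leukaemia with the MLL-AF9 fusion. Both groups were the same line, 3 wells each: one group received 25 nM cortistatin A (CA), an inhibitor of the Mediator kinases CDK8 and CDK19, for 3 h, and the other received the solvent DMSO for 3 h. RNA was hybridised to Affymetrix Human U133 Plus 2.0 arrays, 1 array per well, and the authors deposited log2 values made with RMA. The wells came from a single line and no separate cultures are named, so p-values measure the spread between these wells, which may be technical.

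Autophagy delivers parts of the cytoplasm to the lysosome. The ULK kinase complex starts the process, a class III PI3-kinase complex marks the membrane with a lipid, ATG9 and ATG2 proteins supply membrane, and a chain of conjugating enzymes attaches ATG8 proteins (the LC3 and GABARAP families) to it. Cargo receptors bind both the cargo and the attached ATG8 proteins, and the factors TFEB, TFE3 and MITF switch on genes of autophagy and of the lysosome through the CACGTG motif. In blood cells autophagy is known for its part in keeping stem cells and in the turnover of mitochondria.

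The window before the TP53INP2 start site is shown because this member differed most between the groups. It covers 250 bases at chr20:34704094-34704343, plus strand, from RefSeq with build GRCh38.p14, and it is rich in G and C (72.8%, against a median of 58% over the same window of 27305 genes). The capitals mark TGACGTCA, the cyclic AMP response element sequence, whose first base lies 61 bases before the start site:
TP53INP2: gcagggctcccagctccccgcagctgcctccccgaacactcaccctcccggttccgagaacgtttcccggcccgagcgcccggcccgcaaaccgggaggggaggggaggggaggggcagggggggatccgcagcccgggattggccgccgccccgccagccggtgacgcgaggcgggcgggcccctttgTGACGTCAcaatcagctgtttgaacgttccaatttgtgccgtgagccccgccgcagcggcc
GABARAPL1: ctcgcggggTGACGTCAcagcccgac
GABARAPL1, an ATG8 gene, was the other member with this motif, at chr12:10212838-10212863, plus strand. TGACGTCA was searched after the TP53INP2 window had been read, on both strands, in windows of 300 bases (250 before to 50 after the start site), and 1.98% of all 27305 windows held it. Promoter windows were matched for 34 of the 38 members. TP53INP1, RB1CC1, UVRAG and ATG4D were not matched.

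The motif bound by TFEB, TFE3 and MITF was searched in the same windows. CACGTG lay in 2 of the 34 matched members, ATG14 and ATG3, and in 7.43% of all windows. The longer form TCACGTGA, which contains CACGTG, lay in 1 member (ATG3) and in 1.04% of all windows. The AP-1 motif TGANTCA lay in 1 member, TFE3, and in 7.76% of all windows. The sites of ATG14 (chr14:55411836-55411861, minus strand) and ATG3 (chr3:112561965-112561990 and chr3:112561942-112561967, minus strand) are shown so that the bases around the core can be compared:
ATG14: aacaaaatccCACGTGactggctctc
ATG3: tttctcacgtCACGTGccgggagagt
ATG3: agtctagtgtCACGTGaggccccggt
The ATG14 core begins 21 bases before the start site. The ATG3 cores begin 18 bases before it and at base 6 after it. A match is a description of letters, and no binding was measured here.

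The 6 arrays had medians from 5.03 to 5.08 (log2) and correlated with each other at 0.996 to 0.998, and with 3 per group their number sets the precision. Of 11 measured markers of monocytic leukaemia cells, 7 lay at or above the upper quartile of all probe sets, among them LYZ, FLT3, PTPRC and CEBPA. CEBPA was the 1 of these 11 that passed in limma, higher in CA (log2 change 0.48, adjusted p = 0.0174). CD33 was not analysed here. Of markers of other cells, 0 of 5 for T cells, 1 of 4 for B cells (PAX5), 0 of 4 for erythroid cells, 1 of 5 for epithelial cells (KRT18) and 0 of 5 for fibroblasts did so, and 0 of these 23 passed in limma. The array of CA replicate 3 stood apart: on the first principal component it lay at 33.8 and the others lay between -12.8 and 6.44. Its actin probe sets differed by 3.01 on the log2 scale between the 3' and 5' ends, against 3.20 to 3.28 on the other arrays. A limma fit with array weights gave CA replicate 3 a weight of 0.40, against 0.98 to 1.56 for the other arrays. Without CA replicate 3 limma called 110 probe sets at an adjusted p under 0.05. With all arrays it called 181, and without any other 1 array 0 to 9. The cause of these differences was not tested.

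TP53INP2 was higher after CA. Its log2 values were 6.82, 6.85 and 6.74 in DMSO replicates 1, 2 and 3, and 7.98, 7.92 and 7.71 in CA replicates 1, 2 and 3. All 3 CA arrays lay above all 3 DMSO arrays, and the groups were 0.86 apart at their nearest, while the DMSO arrays spanned 0.11 and the CA arrays 0.27. The means were 6.81 ± 0.06 in DMSO and 7.87 ± 0.14 in CA (SD, n = 3 each), a log2 change of 1.06 or 2.09-fold. This placed it at rank 6 of 20293 fitted probe sets by log2 change, after S1PR3 (1.09) and before SEMA6A (1.05). CA replicate 3, the array that stood apart, had the lowest of the CA values, and without it the log2 change was 1.14. The gene has 1 probe set on the array, so no second one could be set beside it. In bulk RNA, more cells with the transcript and more transcript per cell cannot be told apart.

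TP53INP1, the paralog, is a target of p53 and also binds ATG8 proteins. Its log2 values were 7.32, 7.37 and 7.39 in DMSO and 7.50, 7.43 and 7.23 in CA. The groups overlapped, with CA replicates 1 and 2 above the DMSO arrays and CA replicate 3 below them. Its log2 change was 0.03 (95% confidence interval -0.15 to 0.21, adjusted p = 0.919; limma with Benjamini-Hochberg adjustment over 20293 probe sets). Its other probe sets had log2 changes of -0.05 and -0.12.

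**Figure D1:**
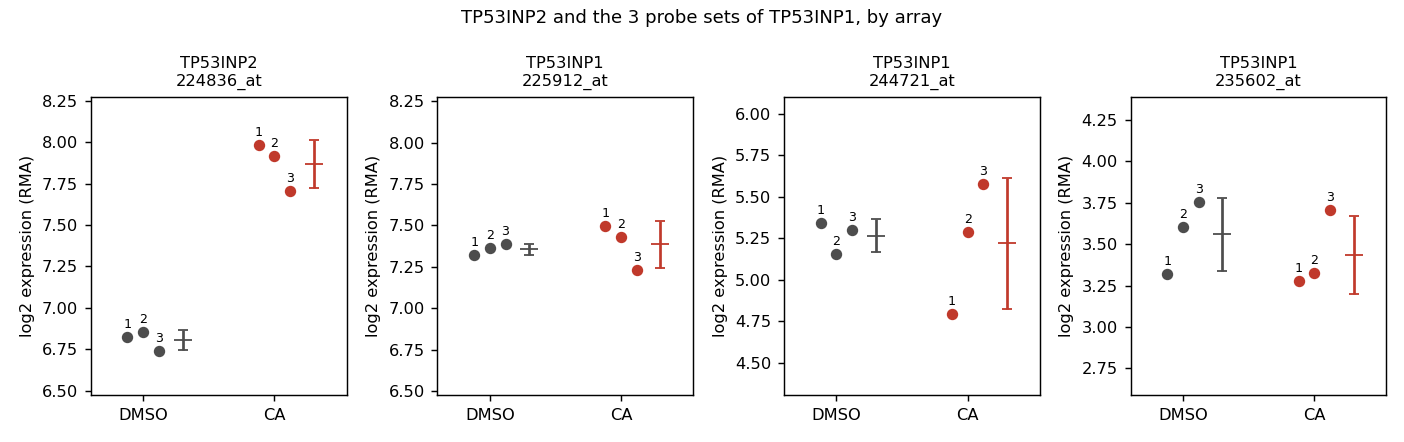
Log2 expression (RMA) of TP53INP2 and of the 3 probe sets of TP53INP1 on each array. Points are arrays with their replicate number, bars are mean ± SD (n = 3), and all 4 panels span the same log2 range. The CA points of TP53INP2 lie between 7.71 and 7.98 and its DMSO points between 6.74 and 6.85, while the groups overlap at each probe set of TP53INP1.

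None of the 37 members other than TP53INP2 passed at an adjusted p under 0.05 in limma, where 0.892% of all fitted probe sets did (0.828% higher in CA, 0.0641% lower). At an unadjusted p under 0.05 there were 5, ATG13, ATG101 and ATG16L1 higher and SQSTM1 and TFEB lower (13.5% of the 37), against 11.6% of all probe sets (7.09% higher, 4.49% lower). Such p-values were more common when limma was fitted separately to the probe sets at or above the median level. There 6 of 36 members had one, against 2187 of 12945 probe sets. The part of the level and the part of the new fit cannot be told apart in this. In a robust fit with an intensity trend, limma called 2 of the 37, ATG101 higher (adjusted p = 0.0481) and SQSTM1 lower (adjusted p = 0.0344). That fit called 567 of all 20293 probe sets, against 181 in the main fit. The median log2 change of the 37 was 0.0049 and the median over all fitted probe sets was 0.0041. The median size of the change, sign left aside, was 0.05 in the 37 and 0.07 over all. The 95% confidence intervals of the 37 reached at most 1.37-fold upward (ATG16L1) and a 28.4% decrease downward (WIPI1).

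Small separations were common in the list. In 14 of the 37 members (37.8%) the CA and DMSO values did not overlap, 7 with CA above and 7 with CA below, against 19.4% of all fitted probe sets (11.9% above, 7.49% below). The share is higher among brighter probe sets, 25% of those at or above the median level, and 36 of the 37 members were at or above that level. ULK2, at a mean log2 of 4.12, was the dim member. A share over probe sets as bright as the members was not taken.

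**Figure D2:**
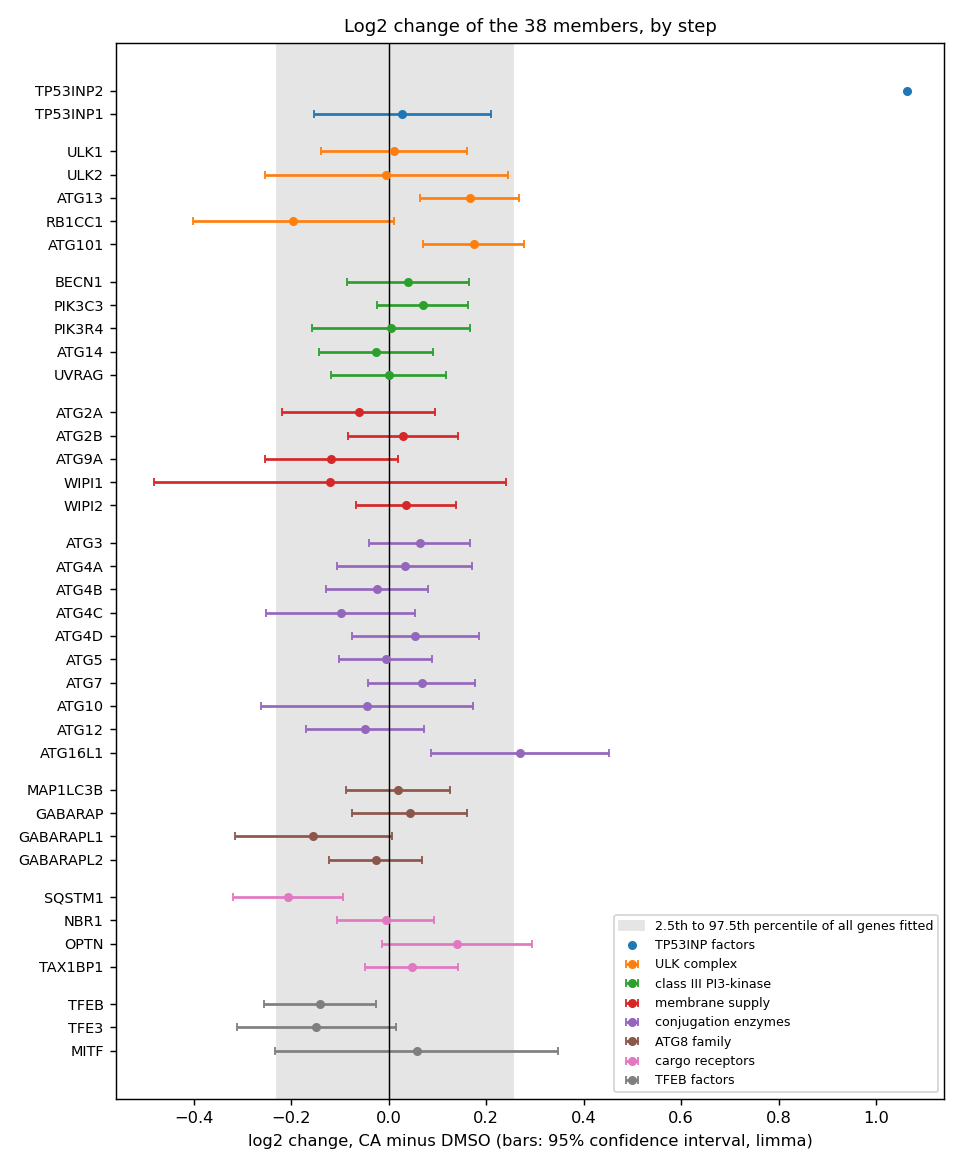
Log2 change (CA minus DMSO) of the 38 members, coloured by step, with 95% confidence intervals from limma; TP53INP2, chosen on this comparison, is shown without an interval. The grey band runs from -0.23 to 0.26, the central 95% of all fitted probe sets, and TP53INP2 at 1.06 and ATG16L1 at 0.27 lie outside it.

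Initiation was represented by the ULK kinase complex, in which ULK1 and ULK2 are the kinases, RB1CC1 is the scaffold, and ATG13 and ATG101 bind each other. None of the 5 passed in limma, and the 2 with an unadjusted p under 0.05 were both higher in CA. Of all fitted probe sets 11.6% had such a p (7.09% higher, 4.49% lower). ATG101 had log2 values of 8.72, 8.75 and 8.74 in DMSO and 8.87, 8.91 and 8.95 in CA. Every CA array lay above every DMSO array, with a log2 change of 0.17 (95% confidence interval 0.07 to 0.28, adjusted p = 0.194 in limma). Its partner ATG13, named after its values were seen, had 7.90, 7.94 and 7.89 in DMSO and 8.05, 8.07 and 8.11 in CA. Its groups did not overlap either, with a log2 change of 0.17 (0.06 to 0.27, adjusted p = 0.204 in limma), and its other probe sets gave 0.18 and 0.09.

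RB1CC1 had a log2 change of -0.20 (95% confidence interval -0.40 to 0.01, adjusted p = 0.450 in limma). Its values were 10.48, 10.45 and 10.30 in DMSO and 10.30, 10.28 and 10.05 in CA. CA replicate 3 was the lowest, and DMSO replicate 3 lay between CA replicates 1 and 2, so the groups overlapped. Without CA replicate 3 the log2 change was -0.12. Its other probe set had a log2 change of 0.02. The kinases ULK1 and ULK2 had log2 changes of 0.01 and -0.0046, with overlapping groups.

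The class III PI3-kinase step had the smallest range of change. BECN1, the beclin subunit, PIK3C3, the catalytic subunit, PIK3R4, its regulatory partner, ATG14, which directs the complex to autophagy, and UVRAG, which directs it to endosomes, had log2 changes between -0.03 and 0.07. None passed in limma, and 0 did without adjustment. PIK3C3 gave 9.38 on each DMSO array and 9.45 on each CA array. Those groups did not overlap, but the log2 change was 0.07 (95% confidence interval -0.02 to 0.16, adjusted p = 0.546 in limma), and the other 6 probe sets of the gene gave -0.08 to 0.15. BECN1 had a log2 change of 0.04 (adjusted p = 0.811 in limma), with overlapping groups.

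For membrane supply the members were ATG9A, a lipid scramblase in vesicles, ATG2A and ATG2B, which transfer lipids, and WIPI1 and WIPI2, which bind the lipid made by the PI3-kinase. None of the 5 passed in limma, and 0 did without adjustment. ATG9A had log2 values of 6.93, 6.95 and 7.09 in DMSO and 6.84, 6.89 and 6.88 in CA. The CA arrays were all lower, with a log2 change of -0.12 (95% confidence interval -0.25 to 0.02, adjusted p = 0.492 in limma), or -0.07 without DMSO replicate 3. WIPI1 was the most variable member in CA: its values were 5.12, 5.20 and 5.26 in DMSO and 5.42, 4.99 and 4.81 in CA. Its log2 change was -0.12 with all arrays and 0.01 without CA replicate 3, and its other probe set gave 0.14. WIPI2 had a log2 change of 0.04 (adjusted p = 0.790 in limma).

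Conjugation had the most members. ATG7 activates ATG8 and ATG12 proteins, ATG3 and ATG10 pass them on, ATG5, ATG12 and ATG16L1 form the complex that completes the transfer, and the ATG4 proteases trim ATG8 proteins. Of these 10 genes and the 4 ATG8 genes none passed in limma. ATG16L1 was the 1 at an unadjusted p under 0.05 (7.14% of the 14, against 11.6% of all fitted probe sets). ATG16L1 had log2 values of 6.51, 6.37 and 6.31 in DMSO and 6.61, 6.78 and 6.60 in CA. Every CA value was above every DMSO value, and the log2 change of 0.27 was the largest among the 37 (95% confidence interval 0.09 to 0.45, adjusted p = 0.253 in limma). Its other probe set, at a mean log2 of 4.43, gave 0.01.

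The enzymes beside it differed less. ATG3 gave 10.99, 10.95 and 10.95 in DMSO and 11.03, 11.06 and 11.00 in CA, without overlap but with a log2 change of 0.06 (adjusted p = 0.627 in limma). ATG4C gave 8.70, 8.71 and 8.70 in DMSO and 8.69, 8.65 and 8.48 in CA. The CA values were all lower, CA replicate 3 the most, with a log2 change of -0.10 (adjusted p = 0.612 in limma), or -0.035 without CA replicate 3. The other conjugation enzymes had log2 changes between -0.05 and 0.07, and of these the groups of ATG7 alone did not overlap.

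The ATG8 proteins are the ones that TP53INP2 binds. GABARAPL1 had log2 values of 5.77, 5.96 and 5.77 in DMSO and 5.74, 5.67 and 5.63 in CA. The CA values were all lower, with a log2 change of -0.15 (95% confidence interval -0.32 to 0.01, adjusted p = 0.448 in limma), or -0.09 without DMSO replicate 2. Its probe set also lists the near-identical GABARAPL3, so the signal cannot be assigned to either gene; the probe sets that list GABARAPL1 alone gave -0.05 and -0.29. GABARAPL2 had a log2 change of -0.03 (adjusted p = 0.839 in limma), with the CA arrays all lower by a little. GABARAP and MAP1LC3B had log2 changes of 0.04 (adjusted p = 0.780 in limma) and 0.02, with overlapping groups.

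Cargo receptors included the member with the smallest p of the 37. SQSTM1, which encodes p62, a receptor for ubiquitinated cargo, had log2 values of 8.55, 8.66 and 8.57 in DMSO and 8.39, 8.37 and 8.39 in CA. The CA arrays were all lower and nearly equal, 13.4% below DMSO (log2 change -0.21, 95% confidence interval -0.32 to -0.09, adjusted p = 0.158 in limma). The other probe sets of SQSTM1 had log2 changes of 0.01, -0.13, -0.00063 and 0.17, so the probe sets of this gene did not share a sign. OPTN, another ubiquitin receptor, gave 7.57, 7.67 and 7.50 in DMSO and 7.74, 7.64 and 7.78 in CA. Its groups overlapped, with a log2 change of 0.14 (adjusted p = 0.466 in limma). TAX1BP1 and NBR1 had log2 changes of 0.05 (adjusted p = 0.694 in limma) and -0.0056.

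Among the factors that drive autophagy and lysosome genes, 2 of 3 had all CA values below all DMSO values, where 7.49% of all fitted probe sets did, and none passed in limma. TFEB had log2 values of 9.22, 9.18 and 9.12 in DMSO and 9.07, 9.02 and 9.01 in CA. Its log2 change was -0.14 (95% confidence interval -0.26 to -0.03, adjusted p = 0.340 in limma), and -0.07 at its other probe set. TFE3 had 8.41, 8.26 and 8.25 in DMSO and 8.20, 8.20 and 8.06 in CA. Its log2 change was -0.15 (-0.31 to 0.01, adjusted p = 0.466 in limma), or -0.10 without DMSO replicate 1. Its other probe sets gave -0.20, -0.12 and 0.05. MITF had a log2 change of 0.06, with overlapping groups.

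**Figure D3:**
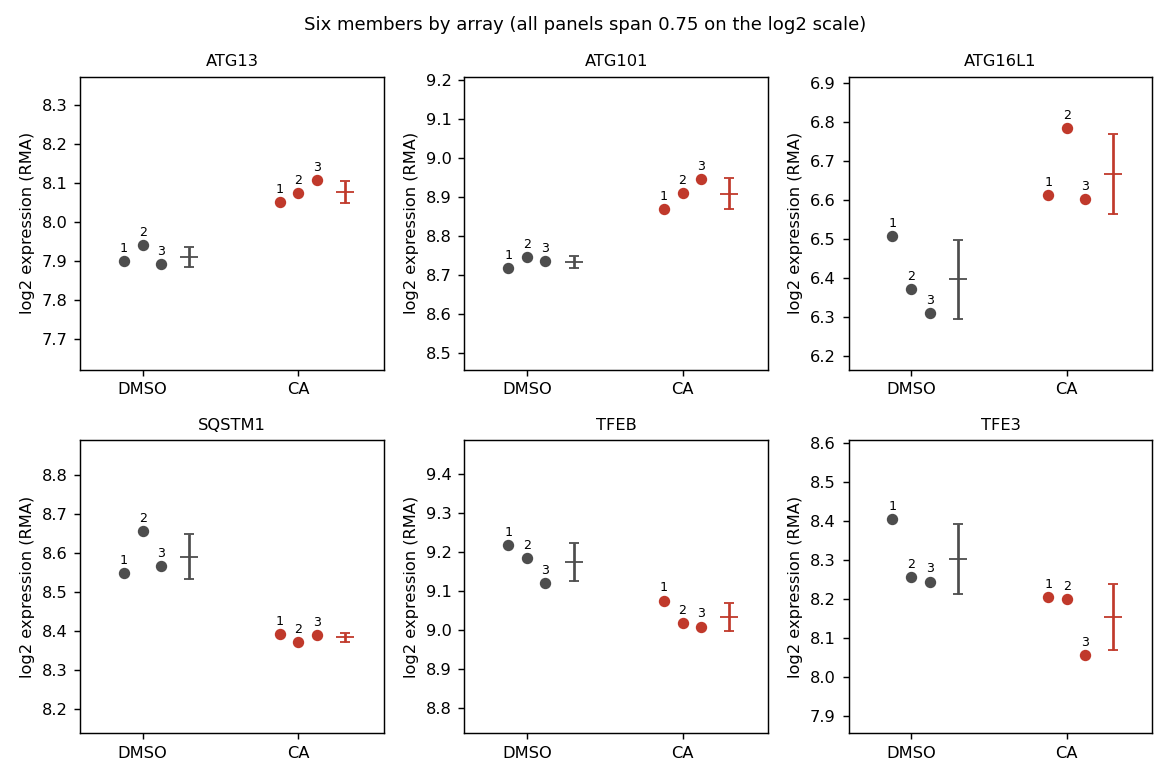
Log2 expression (RMA) by array of ATG13, ATG101, ATG16L1, SQSTM1, TFEB and TFE3. Points are arrays with their replicate number, bars are mean ± SD (n = 3), and every panel spans 0.75 on the log2 scale. All 6 are among the 14 of the 37 members whose groups do not overlap, so the separation in each panel follows from which members are shown. Of all fitted probe sets 19.4% had groups without overlap, and 25% of those at or above the median level. None of the 6 had an adjusted p under 0.05.

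The 38 members had 97 probe sets; 12 members had 1 and 26 had several. Of the 59 probe sets not used, 24 were under the median level. The change had the same sign as at the probe set used in 36 of the 59. Without adjustment 6 had a p under 0.05 (2 positive, 4 negative), against 8.62% of all 54613 probe sets, and 0 passed when limma was adjusted over all probe sets. Their log2 changes ran from -0.29 to 0.21. The gap to the probe set used had a median of 0.10 and a maximum of 0.38 (SQSTM1). ATG7 and ATG4B were singled out after their values were seen. For ATG7, the enzyme at the head of the chain, all 4 probe sets were positive, between 0.07 and 0.17. For the protease ATG4B all 3 were negative, between -0.21 and -0.02.

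**Figure D4:**
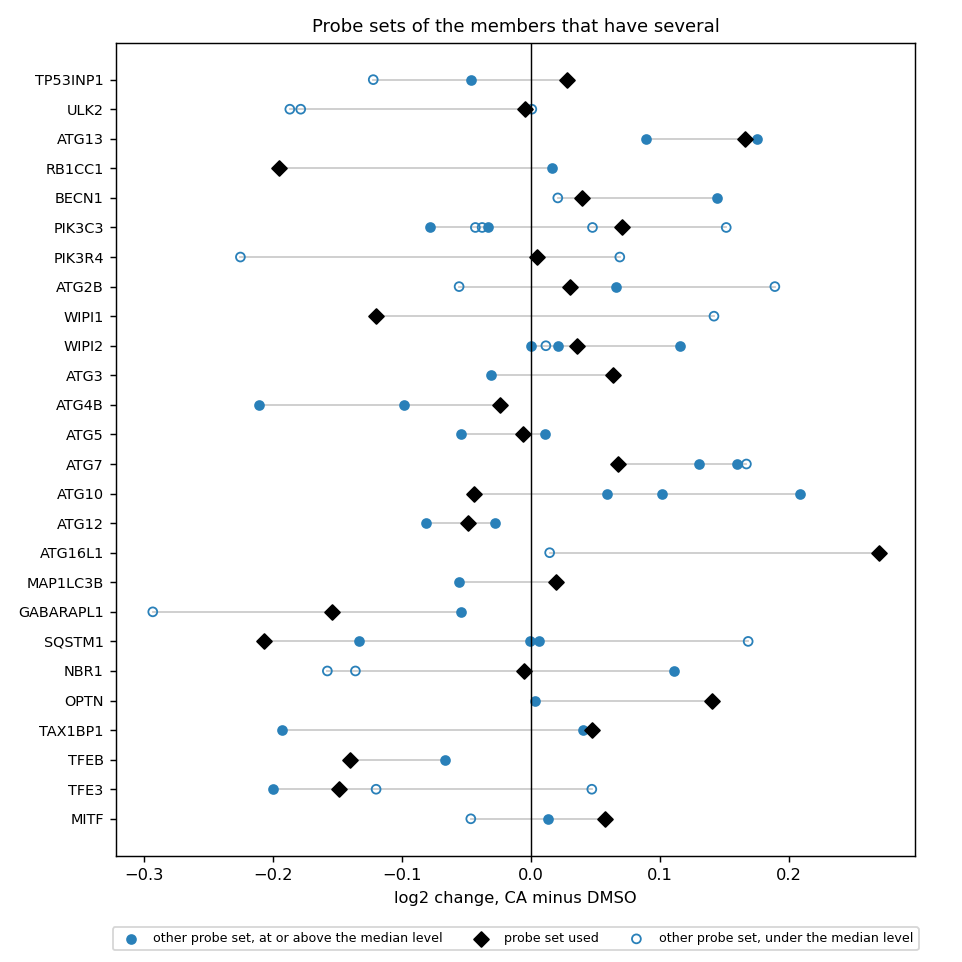
Log2 change (CA minus DMSO) at every probe set of the 26 members that have several. Diamonds are the probe sets used, and circles are the others, open where the mean lies under the median of all probe sets. In ATG13, BECN1, WIPI2, ATG7, ATG16L1 and OPTN all probe sets lie above 0 (1 of WIPI2 at nearly 0), in ATG4B, ATG12, GABARAPL1 and TFEB all lie below 0, and in SQSTM1 they run from -0.21 to 0.17.

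Other genes of the pathway were read from 5 lists that hold no member. They held 128 measured genes. In limma 1 of the 128 passed, against 0.892% of all probe sets, and 20 had an unadjusted p under 0.05 (15.6%, 13 of them positive and 7 negative), against 11.6% of all fitted probe sets (7.09% higher, 4.49% lower), which is also the background for the counts of the single lists. When limma was fitted to probe sets at or above the median level alone, 25 of 122 of these genes had such a p, against 2187 of 12945 probe sets. The median change of the 128 was 0.01 on the log2 scale. The gene that passed was DDIT4, which encodes an inhibitor of mTORC1 signalling and belongs to the nutrient sensing list. It had log2 values of 12.17, 12.17 and 12.21 in DMSO and 12.51, 12.50 and 12.47 in CA. These groups were far apart for their spread, and DDIT4 rose 1.24-fold (95% confidence interval 1.16 to 1.33, adjusted p = 0.0308 in limma). The call was lost without any 1 of the 6 arrays (adjusted p from 0.0628 without CA replicate 3 to 0.187 without DMSO replicate 1).

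The other 34 measured genes of nutrient sensing (mTORC1, AMPK, TSC, RAG and folliculin complexes) did not pass, and the median of the list was -0.0014. Of 24 further autophagy genes 0 passed in limma, and 6 did without adjustment (4 positive, 2 negative). EPG5, a tether for fusion with lysosomes, had the smallest p, with a log2 change of 0.18 (adjusted p = 0.156, or 0.0451 without dim probe sets). The fit without dim probe sets called 361 of 12945 probe sets. With the mean of all probe sets of EPG5 its log2 change was -0.060 (adjusted p = 0.697 in limma). Of 18 selective receptors 0 passed in limma, and 3 did without adjustment (1 positive, 2 negative). NCOA4, the receptor for ferritin, had a log2 change of 0.13 (adjusted p = 0.317, or 0.0120 in the robust fit with a trend). That robust fit called 567 of 20293 probe sets. Of 16 genes of fusion 0 passed in limma, and 2 did without adjustment, both positive. VPS16, a tether subunit, had a log2 change of 0.15 (adjusted p = 0.350).

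Of 35 measured lysosomal genes 0 passed in limma, and 3 did without adjustment (2 positive, 1 negative). These are the genes that TFEB and its relatives are known to drive. Their median log2 change was 0.01 and their changes lay between -0.16 and 0.14. CTSD, the protease cathepsin D, had the smallest p. It gave 6.05, 5.92 and 6.04 in DMSO and 5.90, 5.79 and 5.83 in CA, all CA values lower, with a log2 change of -0.16 (95% confidence interval -0.30 to -0.02, adjusted p = 0.360 in limma).

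**Figure D5:**
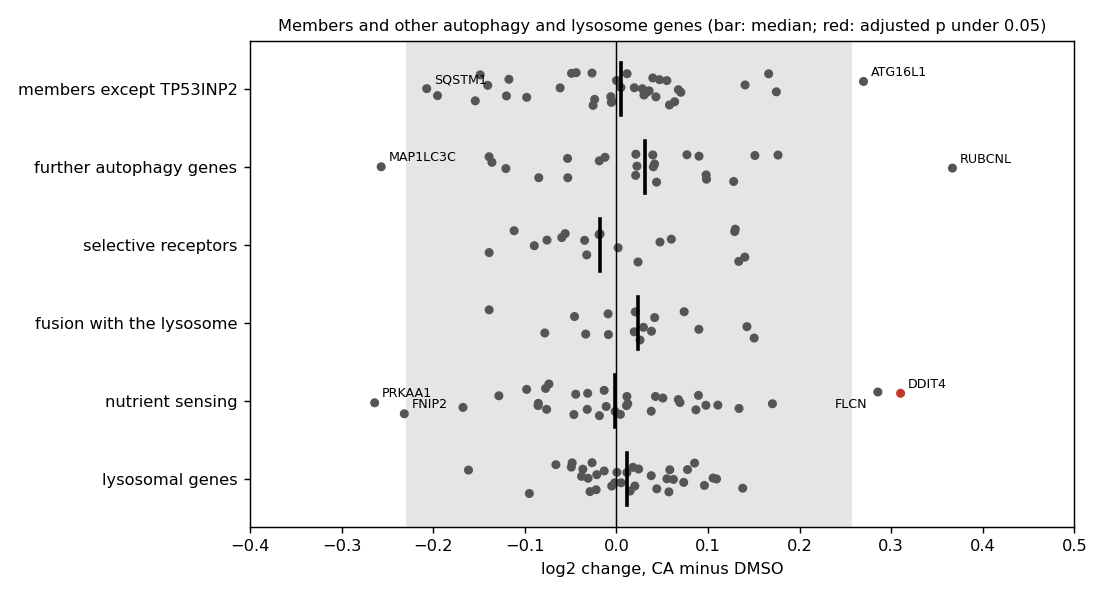
Log2 change (CA minus DMSO) of the 37 members other than TP53INP2 and of 128 other genes of autophagy and lysosomes in 5 lists; each point is a gene, shifted at random along the vertical axis, and black bars are medians. The grey band is the central 95% of all fitted probe sets. The medians lie between -0.02 and 0.03, and DDIT4 (red, 0.31) is the gene with an adjusted p under 0.05.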

How the data were processed

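The authors deposited log2 expression values in a single table. The submitters' processing notes name RMA and affy, without versions. RMA normalises arrays to a common distribution, which removes any shift common to most genes and can shrink changes near background. The sources used here do not say which of the listed RNA isolation reagents served which well. Of 54675 probe sets, 62 controls were left out. Of the other 54613, 41091 list 1 gene, 1801 several and 11721 none in the platform annotation; gene numbers were matched to a RefSeq table of GRCh38.p14. The highest-mean probe set stood for each of 21357 genes, and the 20293 distinct ones were fitted once each in limma 3.58.1 (R 4.3.3; lmFit, eBayes, neither trend nor block). Tests were two-sided, with p-values adjusted by Benjamini-Hochberg and a threshold of 0.05. An exact permutation test of 3 against 3 cannot give a p below 0.1. The fit was also run on values simulated from its own variance model, without an outlying array. That run checked the code and says nothing about the calls made here.

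Members and lists were chosen with earlier results of these data known. Named genes were TP53INP2, TP53INP1, members and list genes past the threshold, the 2 largest changes and the brightest probe set in each step, and otherwise the smallest p in a list. Sequences came from RefSeq promoter windows. Alternatives covered shared probe sets, the mean over probe sets, the fit on all probe sets, cross-hybridising and dim probe sets, a trend, array weights, centring, a replicate block and leaving out each array.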

Additional observations from a re-analysis of the deposited data

How the results depend on the processing

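The log2 change of TP53INP2 lay between 1.01 and 1.14 over 15 alternatives. Of the 37 other members, 0 were called under each alternative except the robust fit with an intensity trend, which called 2. The number of genes called changed, 181 of 20293, was 120 of 54613 probe sets in the fit on all probe sets, 70 without _x_at, _s_at and _a_at probe sets, 361 when dim ones were left out, 567 in the robust fit with a trend, and 6 with the replicate number as a block. With that block 2857 had an unadjusted p under 0.05, against 2350 in the main fit. Leaving out 1 array gave 0 (without DMSO replicate 1, with 1609 at an unadjusted p under 0.05) to 110 (without CA replicate 3). Same-numbered arrays had correlations of their deviations of 0.04, 0.22 and 0.25, and differently numbered arrays had -0.26 to 0.09. Deviations were taken from the mean of each group, so these correlations depend on each other. The labels state no pairing, so the main fit used none. Whether the numbers mark pairs was not tested. Among the other autophagy and lysosome genes, limma called 1 of 128 in the main fit. It called 3 of 122 when dim probe sets were left out, where 361 of 12945 probe sets passed. In the robust fit with a trend it called 4 of 128, where 567 of 20293 probe sets passed. It called 0 in the fit on all probe sets, without _x_at, _s_at and _a_at probe sets and with the replicate block (11, 12 and 17 at an unadjusted p under 0.05), and 0 to 0 when 1 array was left out (8 to 17 unadjusted).

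Signs turned for some uncalled genes. With the mean of all probe sets of a gene, the log2 change was -0.047 for TP53INP1, 0.0109 for WIPI1, -0.035 for TAX1BP1 and -0.060 for EPG5. Without _x_at, _s_at and _a_at probe sets it was 0.14 for WIPI1, -0.031 for ATG3, 0.0062 for SQSTM1 and -0.19 for TAX1BP1. Without 1 array it ran from -0.027 (without CA replicate 1) to 0.107 (without CA replicate 3) for TP53INP1, and from -0.293 to 0.0113 (the same arrays) for WIPI1. The cause was not tested.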

Other observations

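Genes next to TP53INP2 on chromosome 20 were read after its values had been seen. In the order of the RefSeq gene table, the 3 protein-coding genes on one side are DYNLRB1, MAP1LC3A and PIGU, and the 3 on the other are NCOA6, GGT7 and ACSS2. MAP1LC3A encodes an ATG8 protein itself. It had log2 values of 6.84, 6.85 and 6.96 in DMSO and 6.90, 6.80 and 7.06 in CA, with overlapping groups and a log2 change of 0.04 (95% confidence interval -0.15 to 0.23, adjusted p = 0.883 in limma). PIGU, the nearest on that side, had a log2 change of 0.02, and NCOA6, the nearest on the other, had -0.0077. DYNLRB1 and ACSS2 had 0.03 and -0.0099. GGT7 had 0.19 (-0.04 to 0.43, adjusted p = 0.520 in limma). In all 6 the groups overlapped, and none passed in limma.

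Some genes outside the naming rule, chosen after their values were seen, had larger changes than most members. RUBCNL, a relative of the autophagy inhibitor RUBCN that promotes autophagosome maturation, had log2 values of 9.59, 9.80 and 9.62 in DMSO and 10.09, 10.18 and 9.84 in CA, a log2 change of 0.37 (adjusted p = 0.249 in limma); it was called in the robust fit with a trend. FLCN, the tumour suppressor folliculin that acts on RAG GTPases, had 9.20, 9.28 and 9.15 in DMSO and 9.47, 9.50 and 9.52 in CA, a log2 change of 0.29 (adjusted p = 0.0818 in limma), at a probe set that also lists PLD6. FLCN was called when dim probe sets were left out and in the robust fit with a trend. Those fits called 361 of 12945 and 567 of 20293 probe sets, against 181 of 20293 in the main fit. NPRL3, a subunit of a RAG inhibitor complex, had a log2 change of 0.17 (adjusted p = 0.196 in limma). FNIP2, a partner of folliculin, had -0.23 (adjusted p = 0.353 in limma). MAP1LC3C, the third LC3 gene, had -0.26 (adjusted p = 0.182 in limma), at a mean log2 of 4.35, below the array medians.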
